A study of Mus musculus with 14 samples.

Results

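The genes of the mitochondrial ribosome and of mitochondrial gene expression were followed across RNA-seq libraries of mouse aortic valve leaflets. Members were the protein-coding genes whose GENCODE symbol is Mrpl or Mrps followed by digits alone, together with 8 named factors (Mtif2, Mtif3, Tufm, Gfm1, Tfam, Polrmt, Lrpprc and Slirp). The rule found 83 of the 56941 genes in the table: 49 Mrpl genes, counted as large subunit, 26 Mrps genes, counted as small subunit, and the 8 factors. The symbols mislead for a pair of them, since the Mrps30 protein sits in the large subunit and the Mrps36 protein belongs to the 2-oxoglutarate dehydrogenase complex. The study asked how chronic angiotensin II and blockade of the serotonin receptor HTR2B alter the valve. The 14 libraries came from male C57BL/6 wild type mice (C57BL/6J in the methods), 8 weeks old at the start, all kept on a hypercholesterolemic Western diet, and each library is treated as 1 mouse because no source mentions pooling. Ctrl mice (n = 4) were untreated, LY mice (n = 2) received the HTR2B antagonist LY272015 at 3 mg/kg, AngII mice (n = 4) received angiotensin II at 1000 ng/kg/min by osmotic pump for 28 days, and AngII+LY mice (n = 4) received both. The series text places removal of the pumps 48 hours before collection, whereas the methods describe removal in a subset of mice. Some labels of dosed mice carry neighbouring compound numbers, and groups were taken from the sample titles. The animals are a whole-body infusion model, and the leaflets were sequenced in bulk.

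Mitochondria carry a small genome of their own, which encodes respiratory-chain subunits, ribosomal RNAs and tRNAs. It is transcribed by the polymerase Polrmt with the packaging and activating factor Tfam, its mRNAs are stabilized by the Lrpprc and Slirp complex, and they are translated on a ribosome whose proteins are all made in the cytosol from nuclear genes. Contracting and heat-producing cells hold many mitochondria, so heart muscle is rich in these transcripts.

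The promoters of these genes are classically tied to NRF1 and to ETS-family factors such as GABP, and the letters these factors recognise can be looked for directly. RefSeq promoter windows (GRCm38.p6, 250 bases before to 50 after the annotated start, 300 bases in all) matched 73 of the 83 members and gave 79 windows. On either strand, GCGCANGCG, the NRF1 core, stood in 20.3% of the members' windows and in 8.58% of the 21263 windows of all protein-coding genes. CCGGAAG, an ETS site, stood in 36.7% and 11.6%, and ATGGCG, the YY1 core, in 25.3% and 10.9%. CCAAT stood in 36.7% and 38.2%, and TATAAA in 8.86% and 12.6%. In the members' windows ATGGCG lay mostly after the annotated start. Nuclear genes for respiratory-chain subunits, in 29 windows, had the NRF1 core in 27.6%, the ETS site in 20.7% and the YY1 core in 24.1%. These shares describe letters, not bound sites.
The 150 bases before the start are printed for 5 members described below, because they show both motifs and because they take in members that were higher and members that were lower in AngII valves. Capitals mark the NRF1 core and the ETS letters on either strand, and each run reads 5′ to 3′ on the gene's own strand. The windows lie at chr11:120484487-120484636 (Mrpl12, plus strand), chr11:115403602-115403751 (Mrpl58, plus strand), chr11:29526247-29526396 (Mtif2, plus strand), chr10:71238045-71238194 (Tfam, minus strand) and chr10:79746582-79746731 (Polrmt, minus strand) of GRCm38.p6.
Mrpl12: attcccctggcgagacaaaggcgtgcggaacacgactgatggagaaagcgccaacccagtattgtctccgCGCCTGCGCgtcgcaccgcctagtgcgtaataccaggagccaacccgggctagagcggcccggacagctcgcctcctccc
Mrpl58: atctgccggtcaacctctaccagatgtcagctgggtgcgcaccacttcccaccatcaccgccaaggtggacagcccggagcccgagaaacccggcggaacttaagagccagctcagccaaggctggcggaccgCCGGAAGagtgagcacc
Mtif2: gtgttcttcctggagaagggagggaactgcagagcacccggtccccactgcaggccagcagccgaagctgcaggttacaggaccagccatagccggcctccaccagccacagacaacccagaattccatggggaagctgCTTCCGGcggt
Tfam: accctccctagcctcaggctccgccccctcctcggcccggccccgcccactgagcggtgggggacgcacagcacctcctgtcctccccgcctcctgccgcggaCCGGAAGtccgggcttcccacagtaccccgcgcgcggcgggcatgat
Polrmt: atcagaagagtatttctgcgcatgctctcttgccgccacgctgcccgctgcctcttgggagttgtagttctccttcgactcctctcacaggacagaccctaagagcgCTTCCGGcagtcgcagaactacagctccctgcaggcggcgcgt
In the printed stretches Mrpl12 held 1 NRF1 core, while Mrpl58, Mtif2, Tfam and Polrmt each held 1 ETS site. The full windows, which run past the start, held 2 NRF1 cores for Polrmt and a further ETS site each for Mrpl58 and Mtif2, at or across the start and so not in the printed stretches. Mrpl58, lower in AngII, and Mtif2, higher in AngII, thus shared the ETS letters. Among members higher in AngII+LY than in AngII at an unadjusted p under 0.05, the NRF1 core stood in 18.9% of windows, the ETS site in 39.6% and the YY1 core in 17.0%, and among the other members in 23.1%, 30.8% and 42.3%. These differences were not tested.

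Libraries held between 20990655 and 73128220 counts, with AngII replicate 4 the smallest. Transcripts of the mitochondrial genome took 4.00% to 7.52% of the counts in Ctrl, 24.7% and 25.5% in AngII replicates 3 and 4, and 20.2% in AngII+LY replicate 1. Across genes, the level also leaned with base composition in a way that differed between libraries, from a Spearman coefficient of 0.368 in Ctrl replicate 3 to -0.436 in AngII replicate 4. Ctrl replicate 1 stood apart for smooth muscle markers, which took 0.922% of its counts. They took 0.131% in Ctrl replicate 2, 0.169% in AngII+LY replicate 2 and 0.137% in AngII+LY replicate 4. In the remaining libraries they took 0.0163% to 0.0321%. The leaflet's interstitial cell markers were present in every library, led by Dcn.

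In untreated valves the large-subunit genes had a median level of 17.99 CPM (counts scaled to the library total) per kilobase of exon (range 4.02 to 119.7, 49 genes), and the small-subunit genes 13.1 (1.83 to 59.5, 26 genes). Per length, Mrpl34 (120 ± 18.3, SD, n = 4), Mrpl28 (102 ± 24.5) and Mrpl18 (72.8 ± 13.4) were highest among the ribosomal proteins, and Mrps27 (1.83 ± 0.49), Mrps22 (2.50 ± 0.155) and Mrps9 (3.32 ± 0.463) were lowest. The SDs of Mrpl34 and Mrpl28 overlapped, as did those of Mrpl28 and Mrpl18, and of Mrpl18 and the next gene, Mrpl12 (66.6 ± 14.2). Those of Mrps9 and the next lowest ribosomal gene, Mrps25 (3.74 ± 0.687), overlapped as well. The order within these pairs is not resolved. Of the factors, Tufm, the elongation factor that delivers aminoacyl-tRNA to the ribosome, stood at 36.9 ± 12.1, and the others between 2.21 (Mtif3, initiation factor 3) and 6.79 (Gfm1, elongation factor G1). Slirp was listed at a mean of 0.487 ± 0.569 normalized counts in Ctrl and fell under the filter on low counts, so 82 of the 83 members were tested. Of the exon bases annotated for Slirp, 57.3% are shared with exons of other genes, and how the counting treated those reads was not tested. Overlap was also large for Mrpl54 (94.4%), Mrps34 (86.0%), Mrpl34 (81.4%), Mrps7 (57.8%) and Mrpl43 (55.3%), whose values are uncertain for that reason. Mrps34 and Mrps7 were named after their values were seen.

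Taken as a whole, the members made up 0.518%, 0.656%, 0.639% and 0.513% of the counts in the 4 Ctrl libraries and 0.553% and 0.533% in LY. The shares in AngII were 0.520%, 0.424%, 0.497% and 0.345%. In AngII+LY they were 0.587%, 0.592%, 0.738% and 0.715%. The AngII+LY mice thus all lay above the AngII mice, with means of 0.658% ± 0.0800 and 0.447% ± 0.0789 (SD, n = 4 each), while both overlapped the Ctrl range. This separation holds for shares of all counts, mitochondrial ones included. After TMM scaling the summed normalized counts overlapped, at 275191, 211203, 330015 and 239885 in AngII and 375111, 312671, 442314 and 431804 in AngII+LY, since AngII replicate 3 lay above AngII+LY replicate 2. In a bulk sample, fewer cells of a type and less RNA per cell cannot be told apart. The share of 12 cardiomyocyte markers followed a like order: 0.840%, 3.01%, 2.23% and 1.26% in Ctrl, 1.55%, 0.790%, 1.60% and 0.896% in AngII, and 2.48%, 1.97%, 3.30% and 4.34% in AngII+LY. All 12 were detected in every library, with Tnnt2, cardiac troponin T, the most abundant.

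**Figure D1:**
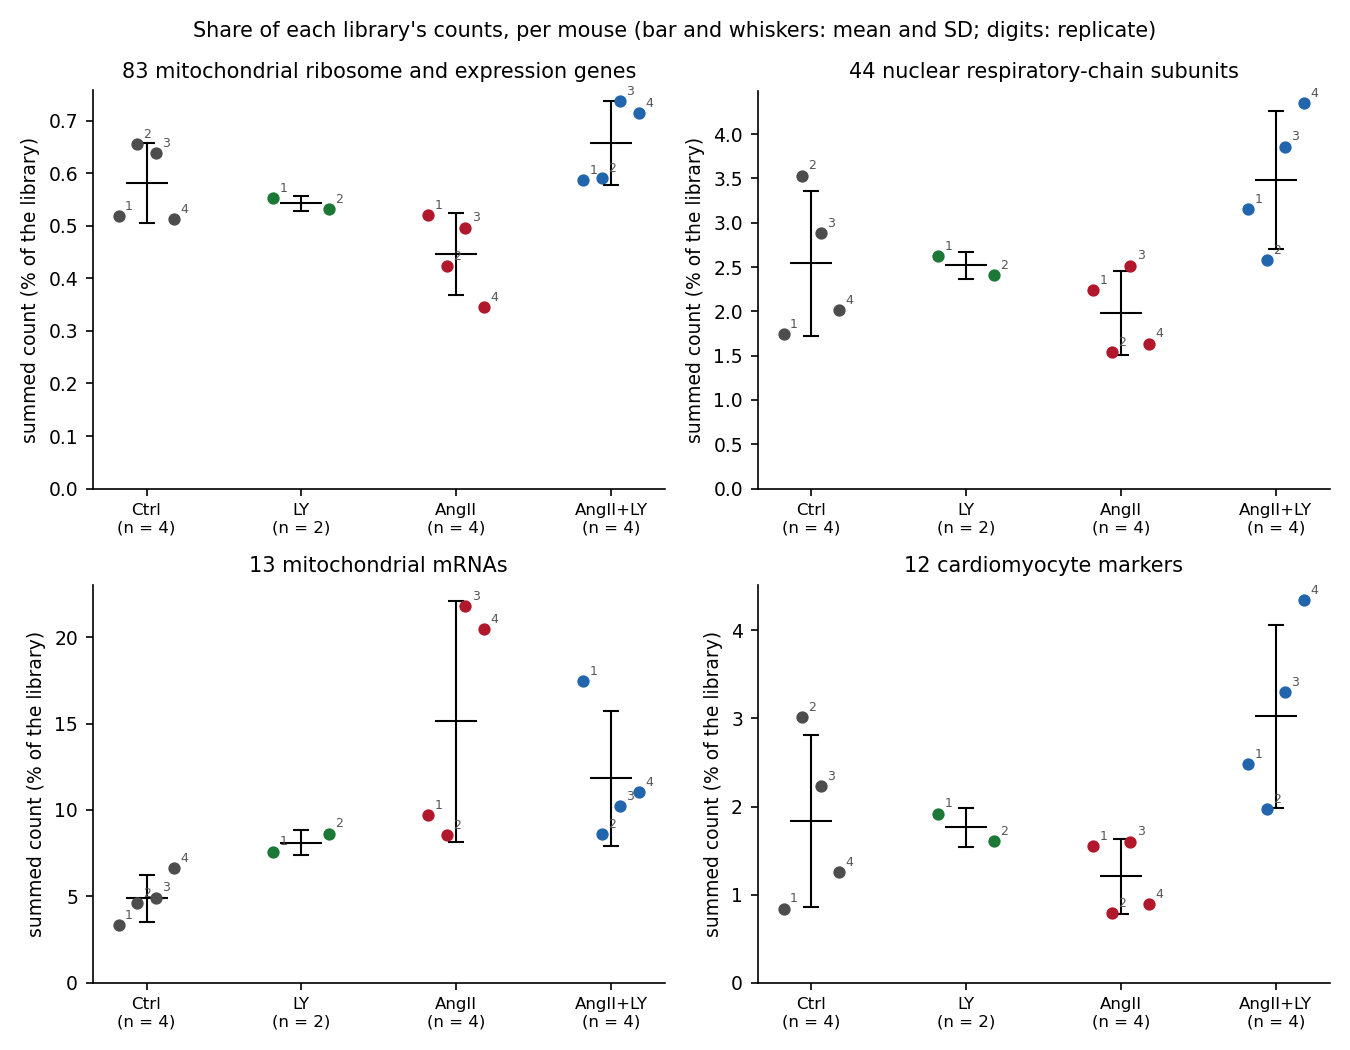
Summed counts of 4 gene groups as a percent of each library's counts, by group of mice. Points are mice with their replicate number, and the bar and whiskers give the mean and SD. The AngII+LY mice lie above the AngII mice for the 83 members (0.587% to 0.738% against 0.345% to 0.520%) and for the cardiomyocyte markers, a separation that TMM-scaled sums do not show because AngII replicate 3 then passes AngII+LY replicate 2, whereas the 13 mitochondrial mRNAs are highest in AngII replicates 3 and 4.

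AngII against Ctrl split the members in both directions. Mrpl38, Tufm, Mrpl28, Mrps26 and Mrpl58 were among the lower genes, and Mtif2, Mrpl1, Mrpl47, Mrps30 and Mrps2 among the higher ones. The median log2 fold change over the 82 tested members was -0.20, beside -0.06 over all 19145 genes tested. It ran from -0.11 without AngII replicate 4 (or 2) to -0.32 without AngII replicate 3. By edgeR's quasi-likelihood test, 21 members were lower and 9 higher at an unadjusted p under 0.05, where 11.7% of all genes were lower and 13.4% higher. The 4 mice of each group did not overlap for 7 lower and 5 higher members, against 7.56% and 7.46% of all genes. After Benjamini-Hochberg adjustment edgeR called none of the members, nor any gene (0%), with a smallest adjusted p of 0.0573, while DESeq2 had 13 members at an adjusted p under 0.05, where 19.2% of all genes it adjusted were called, and 29 at an unadjusted one, against 28.9%. Without AngII replicate 1, edgeR had 10 members at an adjusted p under 0.05 (9.02% of all genes), without Ctrl replicate 4 it had 2 (4.17%) and without AngII replicate 2 it had 1 (1.88%). The count of 30 at an unadjusted p was 17 without Ctrl replicate 2 (19.3% of all genes), 16 without AngII replicate 4 (16.6%) and 7, with 3 higher and 4 lower, without both AngII replicates 3 and 4 (8.62%). Markers of other cell types were also lower in AngII. All 5 smooth muscle markers were lower at an unadjusted p under 0.05 (median log2 fold change -3.31), but without Ctrl replicate 1 none of them passed (median -1.04), and for each of the 5 the Ctrl and AngII mice overlapped. Brown and white adipocyte markers were lower in 8 of 8 (5 at an unadjusted p under 0.05, median -1.69), and 4 of 7 macrophage markers were lower at an unadjusted p under 0.05 (median -1.25). The adipocyte markers, led by Fabp4, took 0.122%, 0.0862%, 0.105% and 0.0899% of the counts in Ctrl and 0.0574%, 0.0405%, 0.0716% and 0.0461% in AngII. After TMM scaling the sums overlapped, as AngII replicate 3 (47529.7) passed Ctrl replicates 2 and 4 (44924.5 and 44761.7). In AngII+LY the share was 0.106%, 0.0859%, 0.0962% and 0.0826%, although 7 of 8 markers were lower than in Ctrl. The part of these markers in the members' differences was not tested.

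Mtif2 (chr11:29476376-29495848, GRCm39), initiation factor 2 of mitochondria, had the largest positive difference. The 4 Ctrl mice had 933, 1269, 919 and 1206 normalized counts and the LY mice 1110.1 and 1487. With AngII the counts were 1875, 2146, 2382 and 2369, and with AngII+LY 1962, 1368, 1594 and 1591. All AngII mice lay above all Ctrl mice, with a log2 fold change of 1.02 ± 0.18 (SE). Its adjusted p in edgeR was 0.0573 (exact permutation p = 0.0286, two-sided, the smallest that 4 mice against 4 allow). The AngII+LY mice lay above every Ctrl mouse and reached into the AngII range.

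Mrpl1 (chr5:96357146-96414586), a protein of the large subunit's stalk, went the same way. It measured 1266, 1839, 1421 and 1894 in Ctrl, 2637, 2469.7, 4884 and 2846 in AngII, and 3692, 2349, 2484 and 3661 in AngII+LY. The infused mice of both groups lay above the Ctrl mice, with a log2 fold change of 0.999 ± 0.25 for AngII (edgeR adjusted p = 0.0588) and 0.92 ± 0.25 for AngII+LY (edgeR adjusted p = 0.242). Mrpl47 (0.78 ± 0.23), Mrps30 (0.65 ± 0.19) and Mrps2 (0.57 ± 0.17) were also above every Ctrl mouse in all 4 AngII mice, with edgeR adjusted p between 0.0757 and 0.0826. Mrpl50 (0.76), Mrpl18 (0.71), Mrps22 (0.56) and Mrpl35 (0.47) were higher at an unadjusted p under 0.05, with overlap between the groups. For Mrps22 the values were 804, 852, 807 and 728 in Ctrl and 875, 829.6, 1538 and 1459 in AngII, so that AngII replicates 3 and 4 alone were far above Ctrl.

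On the lower side, Mrpl58 (chr11:115294556-115303502), which releases peptides from stalled mitochondrial ribosomes, measured 3009, 3489, 3473 and 2951 in Ctrl and 2375, 2035, 2205 and 1433 in AngII. The groups did not overlap, and the AngII mice differed by -0.68 ± 0.18 on the log2 scale (edgeR adjusted p = 0.0619). Mrps26 (-0.70 ± 0.22) and Mrpl23 (-0.58 ± 0.20) were likewise below every Ctrl mouse in all 4 AngII mice. Tufm (chr7:126086511-126089903) measured 2745, 5513, 4943 and 2863 in Ctrl and 3137, 2011, 2687 and 1542 in AngII. The difference was -0.78 ± 0.28 on the log2 scale (edgeR adjusted p = 0.114), with AngII replicate 1 above 2 of the Ctrl mice. The most negative member was Mrpl38, at 2135, 3357, 3362 and 2064 in Ctrl and 2337, 1673, 1282 and 698 in AngII, a log2 fold change of -0.86. It was named after its value was seen.

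**Figure D2:**
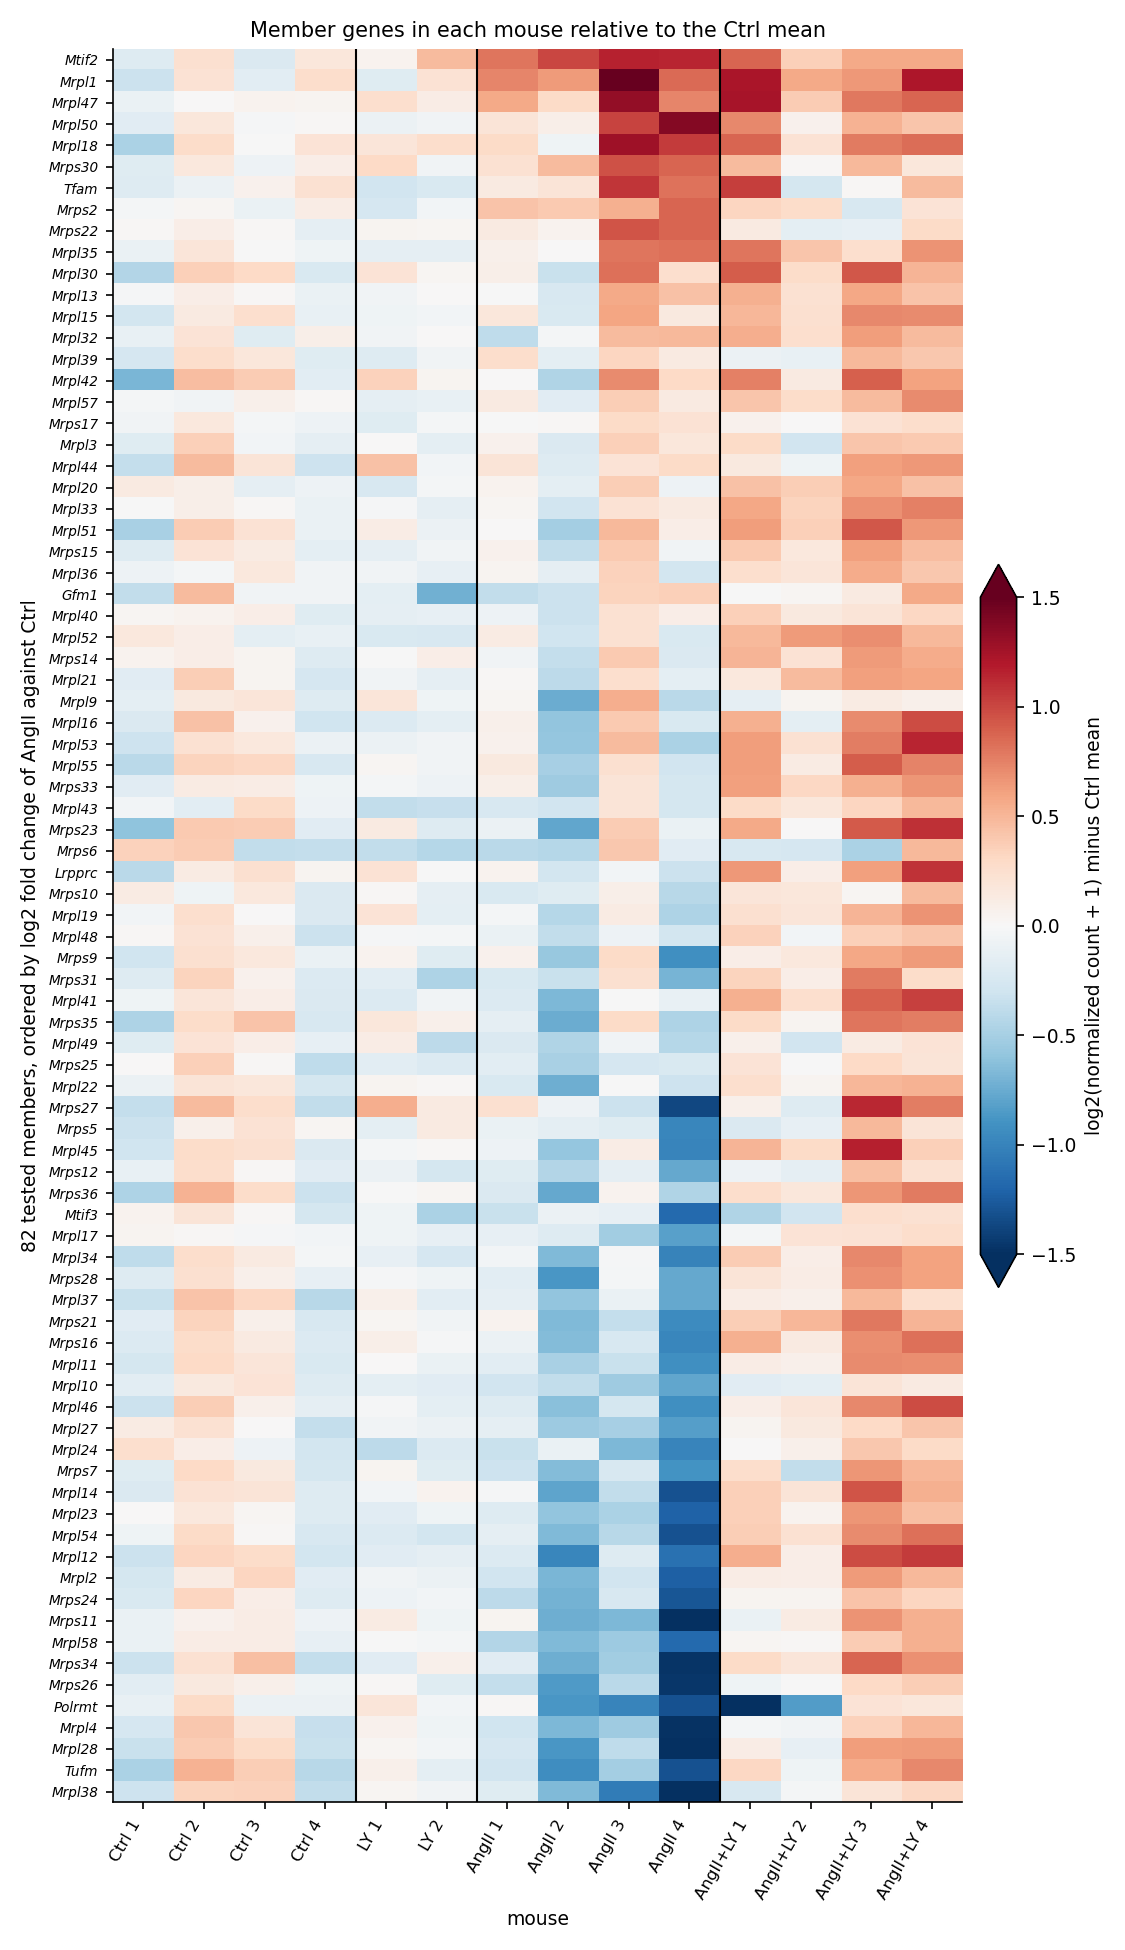
The 82 tested members (rows) in each of the 14 mice (columns), as log2(normalized count + 1) minus the Ctrl mean of the gene. Colours run from blue (lower) to red (higher) and saturate at 1.5. Genes at the top are red and genes at the bottom blue in AngII replicates 3 and 4, and most rows are red in AngII+LY replicates 3 and 4.

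The direction of a member in AngII valves went with the GC content of its exons. Among the 41 members below the members' median GC content of 48.1%, 8 were higher and 3 lower at an unadjusted p under 0.05, with a median log2 fold change of 0.02. Among the 41 at or above it, 1 was higher and 18 were lower, with a median of -0.45. Across the 82 members, which share the same 8 libraries, the Spearman coefficient between GC content and log2 fold change was -0.674, and it was -0.545 across all 19043 tested genes with a GC value. When each library's lean with GC content was removed by a loess curve, both sets had negative medians, -0.35 and -0.25, and the median of all members was -0.26. The coefficient was then 0.243 among the members and -0.0824 over all genes, so the members' lean turned over rather than vanished. The calls at an unadjusted p under 0.05 were then 2 higher and 18 lower, in place of 9 and 21, against 6.17% and 8.16% of all genes. Under that correction Mtif2 stood at 0.32, Mrpl1 at 0.44, Mrps2 at 0.28, Mrpl50 and Mrpl35 at 0.11 and Mrps30 at 0.03 on the log2 scale, whereas Mrpl18 (GC content 53.5%) stood at 1.09 and Mrpl47 at 0.72. Mrps26 stood at -0.65 and Mrpl58 at -0.52. Whether base composition has a part in these differences was not otherwise tested.

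**Figure D3:**
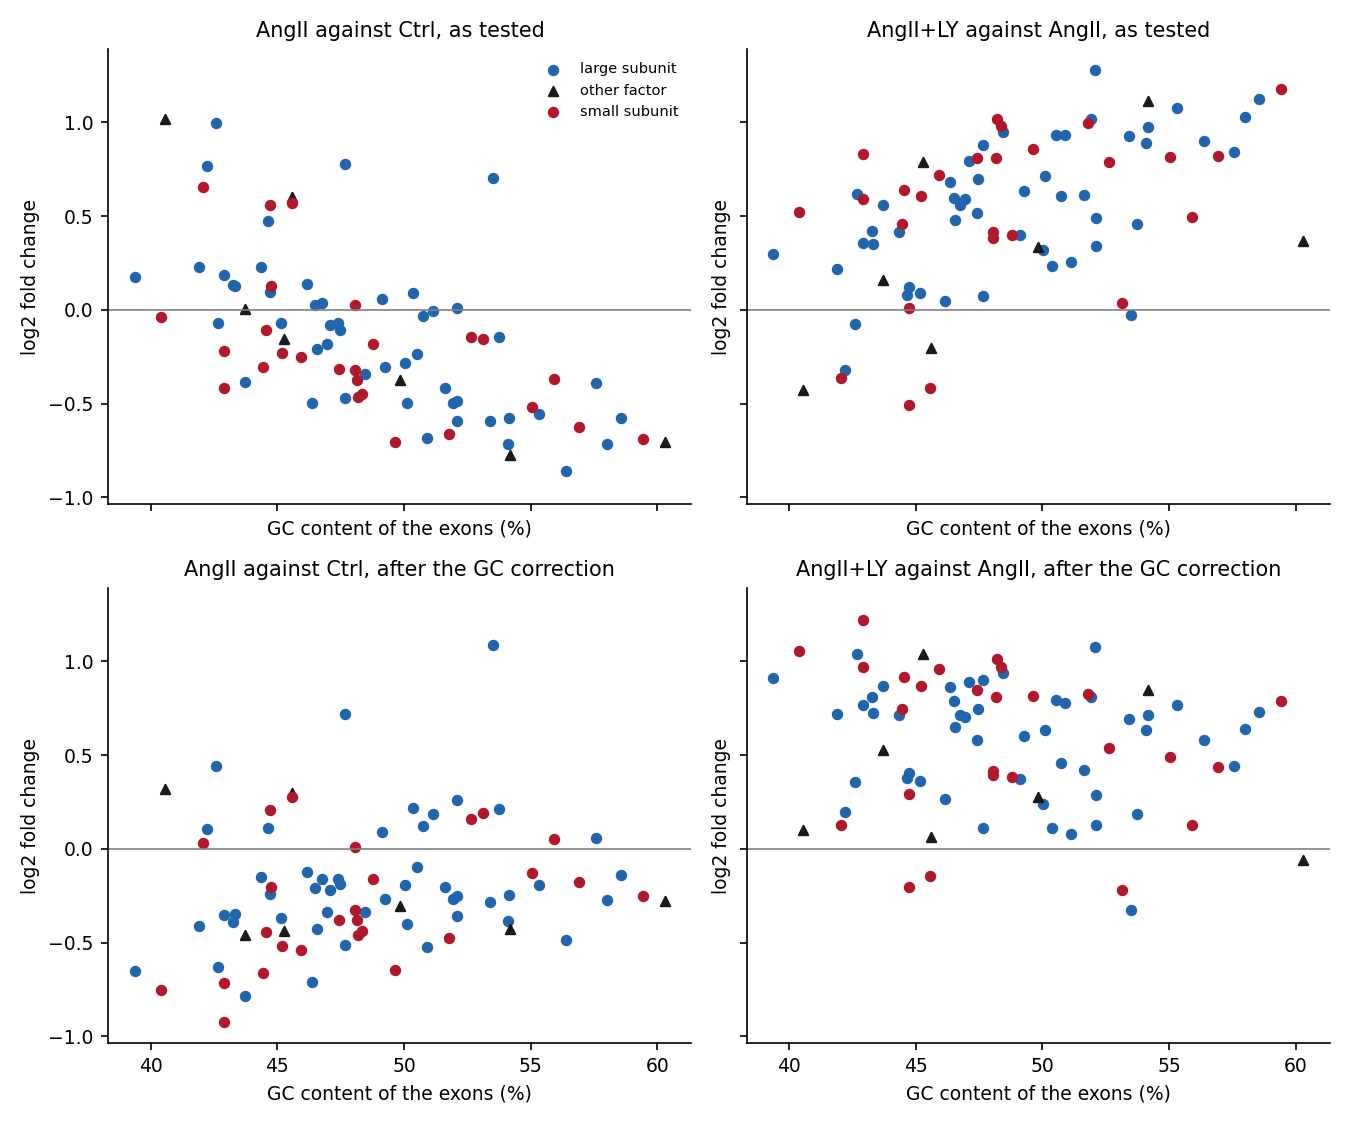
Log2 fold change of each tested member against the GC content of its exons (%), for AngII against Ctrl (left) and AngII+LY against AngII (right), as tested (top) and after the GC correction (bottom). Blue points are Mrpl genes, red points Mrps genes and black triangles the other factors. The slope is downward at top left (Spearman -0.674) and upward at top right (0.528), and most points at bottom right lie above 0.

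AngII+LY against AngII, which shares its AngII mice with the comparison above, had nearly the whole module on one side. The median log2 fold change of the 82 members was 0.57, beside -0.02 over all genes, and 74 members were higher. At an unadjusted p under 0.05, 54 were higher and 3 lower in edgeR, against 10.1% and 12.4% of all genes. The 4 AngII+LY mice lay above the 4 AngII mice for 35 members and below them for 1, where 5.45% and 5.66% of all genes were so separated. Of the large-subunit genes 32 of 49 were higher and none lower (median 0.56), and of the small-subunit genes 20 of 26 were higher and 2 lower (median 0.62). With Mrps30 counted in the large subunit and Mrps36 in neither, these were 32 of 50 (median 0.56) and 19 of 24, with 2 lower (median 0.62). Proteins with a bacterial counterpart had 29 of 44 higher and 1 lower (median 0.54), and those without had 23 of 31 higher and 1 lower (median 0.61), Mrps36 being 1 of the 23. Differences between these classes were not tested. The adjusted test of edgeR called no member and no gene (0%), with a smallest adjusted p of 0.0588 among the members, while DESeq2 had 38 members at an adjusted p under 0.05, where 14.9% of all genes it adjusted were called. Among the 49 members with under 10% of their exon bases shared with other genes, 31 were higher and 1 lower. Without AngII replicate 1, edgeR had 23 members at an adjusted p under 0.05, against 4.4% of all genes. Without AngII replicates 3 and 4, 58 members had an unadjusted p under 0.05 (14.9% of all genes) and the median was 0.62, and without AngII+LY replicate 1 they were 54 (24.4%) and 0.61.

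Mrpl12 (chr11:120375430-120381396), a stalk protein of the large subunit that also binds the mitochondrial RNA polymerase, had the largest difference. The 4 Ctrl mice had 8521, 13351, 12974 and 8868 normalized counts and the LY mice 9476 and 9761. With AngII the counts were 9245, 5438, 9389.9 and 4904, and with AngII+LY 15624, 11498, 21105 and 22161. Each AngII+LY mouse was above each AngII mouse, by 1.28 ± 0.27 on the log2 scale (edgeR adjusted p = 0.0588; exact permutation p = 0.0286). AngII+LY replicate 2 stayed within the Ctrl range, and the other 3 were above it.

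Mrpl58 measured 3273, 3254, 4204 and 4658 in AngII+LY, above every AngII mouse given above, with the smallest unadjusted p of the module (0.000163 in edgeR, log2 fold change 0.93 ± 0.18). Mrps16 (chr14:20439372-20443713), of the small subunit, measured 4182, 2809, 3737 and 2243 in AngII and 6415, 4853, 7200.0 and 7846 in AngII+LY, a log2 fold change of 1.02 ± 0.22. Mrpl23 (0.97 ± 0.21), Mrpl41 (0.93 ± 0.20) and Mrpl54 (1.12 ± 0.23) were separated in the same way. Mrpl41 has 42.2% of its exon bases in common with other genes, and Mrpl54 94.4%.

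Among the factors, Tufm measured 4742, 3672, 5606 and 6316 in AngII+LY and lay above every AngII mouse, by 1.12 ± 0.28 on the log2 scale (edgeR adjusted p = 0.0625). Lrpprc (chr17:85012670-85098279), which protects mitochondrial mRNAs, measured 1884, 1507, 1772 and 1449 in AngII and 2848, 1954, 2790.2 and 3844 in AngII+LY. The groups did not overlap, and differed by 0.79 ± 0.21 on the log2 scale (edgeR adjusted p = 0.0713). Gfm1 (0.16 ± 0.24) and Mtif3 (0.33 ± 0.26) did not pass an unadjusted p of 0.05.

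The 2 genes of mitochondrial transcription, Tfam and Polrmt, did not pass an unadjusted p of 0.05 in edgeR in either of these comparisons. Tfam measured 1331, 1427, 1587 and 1775 in Ctrl, 1669, 1733, 3205 and 2674 in AngII, and 3132, 1265, 1536 and 2110.1 in AngII+LY. AngII replicates 3 and 4 and AngII+LY replicate 1, the libraries with the largest mitochondrial share, held its 3 highest values. The differences were 0.60 ± 0.28 on the log2 scale for AngII against Ctrl (edgeR adjusted p = 0.199) and -0.21 ± 0.28 for AngII+LY against AngII. Polrmt measured 1376, 1806, 1388 and 1394 in Ctrl, 1503, 806, 744 and 599 in AngII, and 519, 829.8, 1709 and 1669 in AngII+LY. AngII replicate 1 lay within the Ctrl range and AngII+LY replicate 1 was the lowest of all, with log2 fold changes of -0.70 ± 0.36 and 0.37 ± 0.36.

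Mtif2, Mrps2 and Mrps22 were the 3 members lower in AngII+LY than in AngII at an unadjusted p under 0.05. Mrps2, of the small subunit, measured 1329, 1380.4, 1264 and 1461 in Ctrl, 1831, 1782, 1968 and 2492 in AngII, and 1690.2, 1643, 1145 and 1568 in AngII+LY. The AngII mice lay above the mice of both other groups, with a difference of -0.42 ± 0.17 on the log2 scale for AngII+LY against AngII (edgeR adjusted p = 0.177). The differences for Mtif2 and Mrps22 were -0.43 ± 0.18 and -0.51 ± 0.23. After the GC correction they stood at 0.10, -0.15 (Mrps2) and -0.21 (Mrps22), so Mtif2 changed sign. Over all members the correction left the median at 0.65, and 58 had an unadjusted p under 0.05, against 15.5% of all genes.

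**Figure D4:**
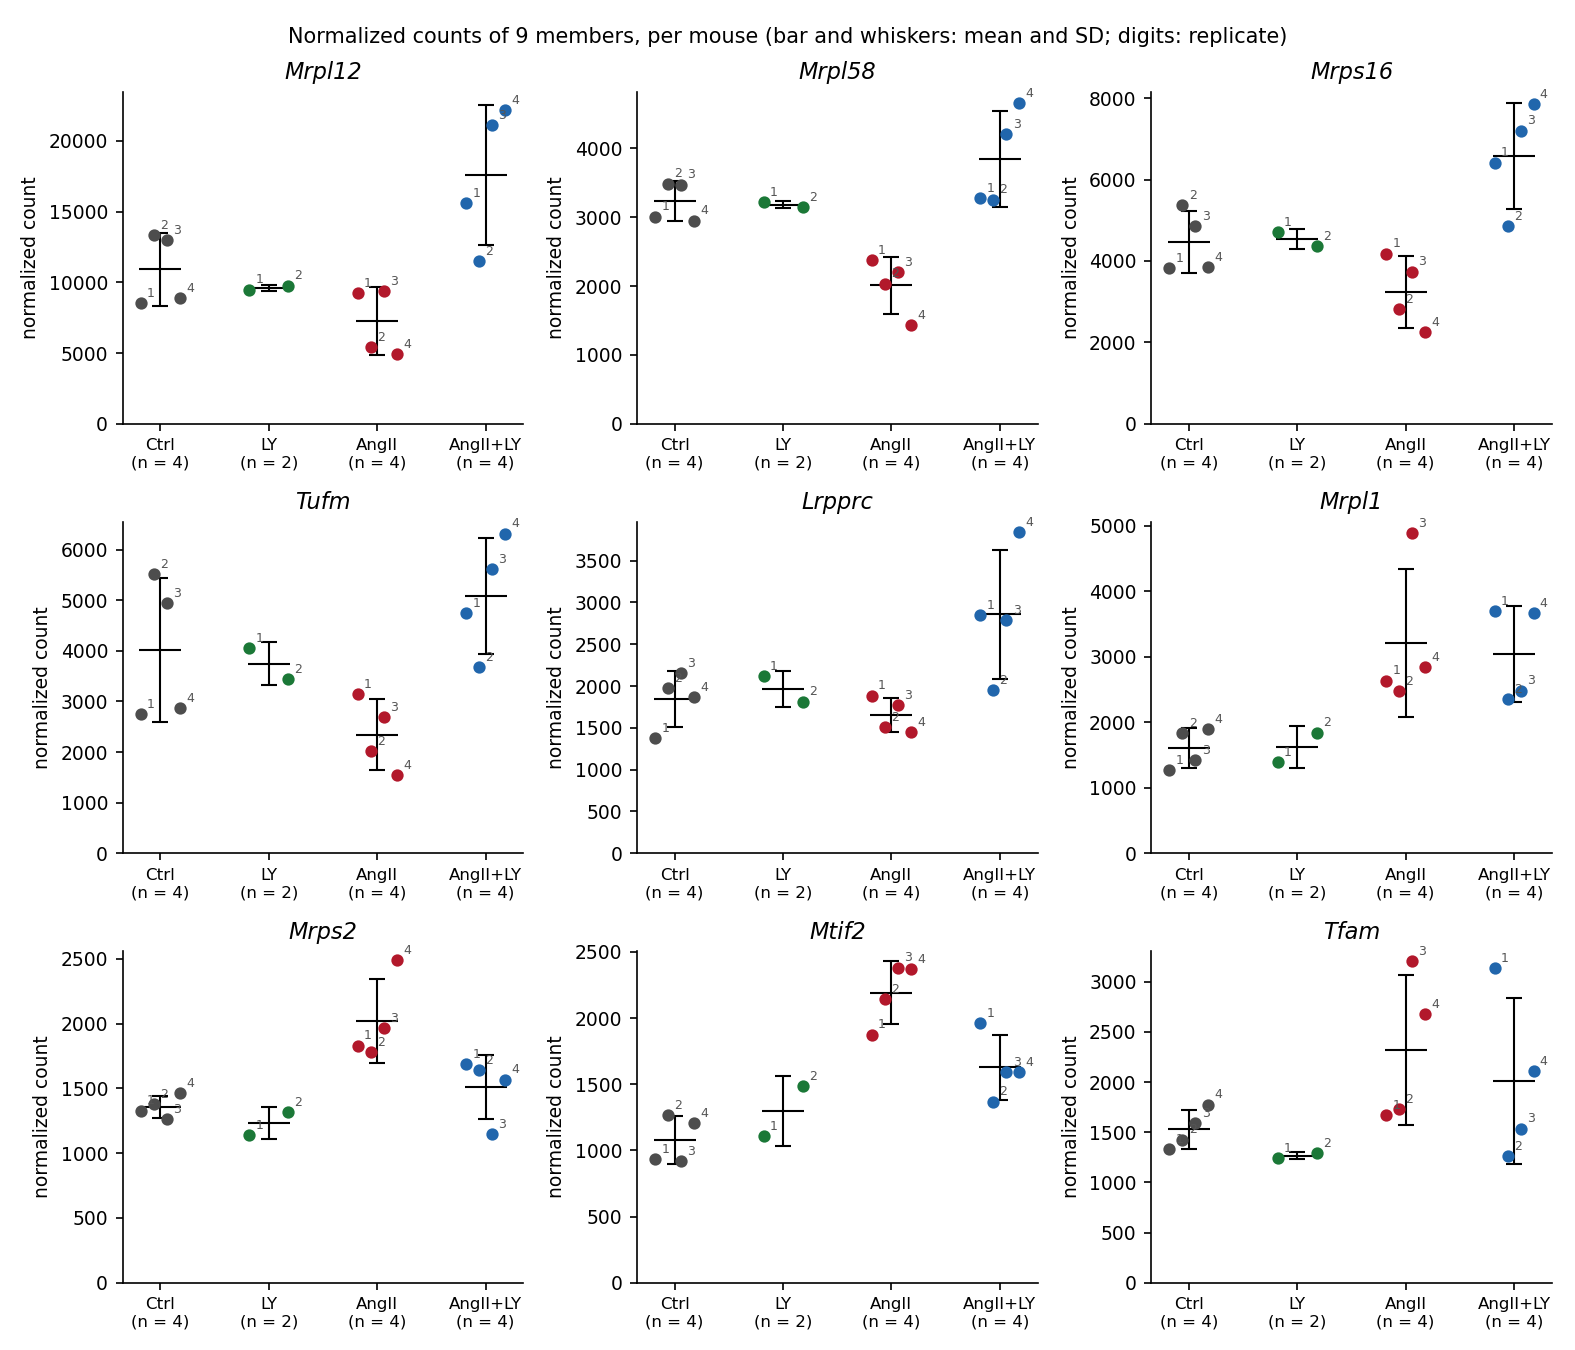
Normalized counts of 9 members, by group of mice, with points for mice and replicate numbers beside them. The bar and whiskers give the mean and SD. Mrpl12, Mrpl58, Mrps16, Tufm and Lrpprc are higher in each AngII+LY mouse than in each AngII mouse, Mrps2 and Mtif2 are highest in AngII, and Tfam is highest in AngII replicate 3 (3205) and AngII+LY replicate 1 (3132).

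The cardiomyocyte markers moved with this comparison. All 12 were higher in AngII+LY than in AngII, 9 of them at an unadjusted p under 0.05, with a median log2 fold change of 1.38. Tnnt2 had 161897, 75520, 192119 and 94269 normalized counts in AngII and 301544, 206120, 403359 and 645583 in AngII+LY, with no overlap. Nppa, the atrial natriuretic peptide, reached 141584 in AngII+LY replicate 4 and at most 5853 in the other AngII+LY mice. Markers of valve interstitial cells went the other way, with 5 of 9 lower at an unadjusted p under 0.05 and a median of -0.82. Smooth muscle markers were higher in 5 of 5 (1 at that threshold, median 1.76, and 2.54 with the covariate described next). They took 0.0199%, 0.169%, 0.0240% and 0.137% of the counts in AngII+LY and 0.0163% to 0.0321% in AngII. AngII+LY replicates 2 and 4 alone thus stood above the AngII range. Macrophage markers were higher in 5 of 7 (2 at that threshold, median 0.48). Over all genes 10.1% were higher and 12.4% lower. The part of these 3 marker sets in the members' differences was not tested. When the mean log2 level of the cardiomyocyte markers was added to the edgeR model as a covariate, a setting chosen after seeing the data, the members' median log2 fold change was 0.28. Under it 22 were higher and 3 lower at an unadjusted p under 0.05, in place of 54 and 3, against 5.94% and 6.93% of all genes. Mrpl54 stood at 0.83, Mrpl23 at 0.82, Mrpl12 at 0.76, Mrpl58 at 0.71, Mrps16 at 0.64, Mrpl41 at 0.61 and Tufm at 0.54 on the log2 scale under the covariate. Lrpprc fell short of an unadjusted p of 0.05 there, at 0.35 in place of 0.79, and the median of the 4 translation factors was -0.07 in place of 0.25. For AngII against Ctrl the covariate left the median at -0.21. There 37 members had an unadjusted p under 0.05, 9 of them higher, in place of 30. Of all 19145 genes, 5253 passed with the covariate, in place of 4815. What part of the differences lies in the number of heart muscle cells in each dissected leaflet was not tested beyond this.

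AngII+LY against Ctrl showed mostly positive values, with 79 of the 82 members higher and a median log2 fold change of 0.40, beside -0.02 over all genes. Mrpl1 and Mrpl47 had the largest differences. All 12 cardiomyocyte markers were higher as well (8 at an unadjusted p under 0.05, median 1.15), all 9 interstitial cell markers were lower (6 at that threshold, median -0.86), 7 of 8 adipocyte markers were lower (4 at that threshold, median -1.77) and 5 of 7 macrophage markers were lower (4 at that threshold, median -0.87). Apart from the cardiomyocyte covariate, their part in the difference was not tested. The comparison shares its mice with the ones above. In edgeR 30 members were higher and none lower at an unadjusted p under 0.05, where 4.89% of all genes were higher and 6.14% lower. Groups did not overlap for 17 higher members and no lower one, against 3.27% and 4.89% of all genes. No member and no gene (0%) passed the adjusted test of edgeR (smallest adjusted p among members 0.230), and DESeq2 had 5 members at an adjusted p under 0.05, against 2.5% of the genes it adjusted. Mrpl33 (chr5:31754279-31837542), of the large subunit, had the smallest p. It measured 5718, 6099, 5805 and 5332 in Ctrl and 8542, 7239, 9184 and 9649.9 in AngII+LY, with no overlap and a log2 fold change of 0.59 ± 0.15. The count of 30 was 14 without Ctrl replicate 1 (7.62% of all genes), 14 without AngII+LY replicate 3 (9.35%), 17 without Ctrl replicate 4 (9.64%) and 19 without AngII+LY replicate 4 (10.7%). With the cardiomyocyte covariate it was 2 (6.21%), and the median log2 fold change 0.09.

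LY alone differed little from Ctrl in these genes. The 82 log2 fold changes ran from -0.44 (Mrps6) to 0.31 (Mrps27), with a median of -0.08 beside -0.03 over all genes. The median was 0.01 without Ctrl replicate 2, -0.03 without Ctrl replicate 3 and -0.13 without Ctrl replicate 1 or 4, so its sign rested on single mice. Smooth muscle markers were lower in 5 of 5, 4 of them at an unadjusted p under 0.05 (median -3.92), and 2 of them without Ctrl replicate 1 (median -1.66). No member had an unadjusted p under 0.05 in edgeR, where 0.627% of all genes were higher and 0.763% lower, none passed the adjusted test (0% of genes), and DESeq2 had none at either threshold, with 0.106% of all genes past its adjusted one. Mrps6 measured 3058, 3147, 1865 and 1884 in Ctrl and 1874 and 1789 in LY, so the 2 LY mice lay with the lower Ctrl pair. Mrpl43, of the large subunit, had the smallest p (0.106), at 1253, 1159.6, 1573 and 1223 in Ctrl and 1002 and 1016 in LY (log2 fold change -0.37 ± 0.21, edgeR; exact permutation p = 0.133, the smallest that 2 mice against 4 allow). With 2 mice, a difference of this size could not be resolved.

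Whether the antagonist's effect differed with and without AngII was tested by an interaction term. The median over the members was 0.65 on the log2 scale, beside 0.04 over all genes. In edgeR 35 members were positive and 1 negative at an unadjusted p under 0.05, against 5.66% and 7.64% of all genes, with a smallest adjusted p of 0.295. DESeq2 had 1 member at an adjusted p under 0.05, against 1.86% of the genes it adjusted. Mrpl12 (1.46 ± 0.44) and Mrpl54 (1.37 ± 0.37) had large positive terms, and Mtif2 (-0.69 ± 0.29) was the negative one. The count of 36 was 21 without LY replicate 1 (8.63% of all genes) and 14 without LY replicate 2 (6.74%), fits in which the remaining LY mouse is assumed to vary like the other groups. It was 19 with the cardiomyocyte covariate (10.7%), and the median was 0.37. Cell type markers moved with this term as well. Cardiomyocyte markers were positive in 11 of 12 (3 at an unadjusted p under 0.05, median 1.34), interstitial cell markers were negative in 8 of 9 (3 at that threshold, median -0.68), and smooth muscle markers were positive in 5 of 5, all at that threshold (median 5.68, and 3.41 without Ctrl replicate 1). For smooth muscle, AngII+LY replicates 2 and 4 alone stood above the AngII range in share of counts. Apart from the cardiomyocyte covariate, their part in the term was not tested.

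The rest of the machinery was measured in lists beside the members. The 8 subunits of the mitochondrial ribosome with other symbols had a median log2 fold change of 0.70 in AngII+LY against AngII, beside 0.57 for the members. At an unadjusted p under 0.05, 5 were higher and 1 lower, against 10.1% and 12.4% of all genes. Gadd45gip1, a large-subunit protein with 76.2% of its exon bases shared, had 801 ± 221 normalized counts in AngII and 1707 ± 237 in AngII+LY (log2 fold change 1.09). Of the 8, 2 had negative log2 fold changes, and Mrps18c, of the small subunit, had the most negative. It measured 2336, 1747, 1849.7 and 3292 in Ctrl, 4581, 4026, 9101 and 8911 in AngII, and 5729.7, 2653, 3524 and 3685 in AngII+LY, with log2 fold changes of 1.53 for AngII against Ctrl and -0.77 for AngII+LY against AngII. Of its exon bases, 84.3% overlap other genes.

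Assembly factors, which build and modify the ribosome, had a median log2 fold change of 0.10 in AngII+LY against AngII, with 6 of 23 higher and none lower at an unadjusted p under 0.05. Mtg2, an assembly GTPase, stood at 0.81 and the rRNA methyltransferase Mrm2 at 0.76. Genes of mitochondrial DNA transcription and maintenance had a median of -0.05 (1 of 12 higher, Atad3a at 0.92), and those of RNA processing and decay 0.01 (4 of 23 higher, 4 lower). In the latter list Hsd17b10, a subunit of mitochondrial RNase P, stood at 1.02 and Trmt10c, another subunit of the same enzyme, at -0.76. Other translation factors had a median of -0.01 (3 of 12 higher, 2 lower), with Gatb, which completes the charging of glutaminyl-tRNA, at 0.99. Over all genes 10.1% were higher and 12.4% lower, so the transcription list and the lower genes of RNA processing were near that background. The ribosomal genes had a larger median than these 4 lists, and that difference was not tested.

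Among the 17 mitochondrial aminoacyl-tRNA synthetases, which load tRNAs with amino acids, 2 were higher and 1 lower in AngII+LY against AngII at an unadjusted p under 0.05, near the 10.1% and 12.4% of all genes. Lars2, the leucyl enzyme, had by far the largest count, at 130163 ± 27495 normalized counts in Ctrl (SD, n = 4) and 117959 ± 33010.1 in LY (n = 2). The AngII mice averaged 336158 ± 119120.0 and the AngII+LY mice 435233 ± 94037. Every infused mouse was above every other mouse, from 228111 upward against at most 162184. AngII differed from Ctrl by 1.37 on the log2 scale (edgeR adjusted p = 0.0573). In Ctrl the other 16 synthetases together summed to 17611.5 ± 2522 normalized counts. Whether all reads counted for Lars2 came from its own mRNA was not tested. The other 16 synthetases together took 0.0304% to 0.0398% of counts in Ctrl and 0.0171% to 0.0315% in AngII, mitochondrial counts included. After TMM scaling their sums were 15110 to 20726.1 in Ctrl and 15967.5, 15699.5, 15630.1 and 11858.9 in AngII. AngII replicate 4 alone then lay below the Ctrl range.

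The products served by the machinery can be set beside it. All 13 mitochondrial mRNAs were higher in AngII than in Ctrl at an unadjusted p under 0.05, where 13.4% of all genes were higher. Their median log2 fold change was 1.70 (0.78 after the GC correction), and mt-Rnr2, the large ribosomal RNA, stood at 2.37. All 13 mRNAs were likewise higher in AngII+LY than in Ctrl at an unadjusted p under 0.05 (median 1.52), against 4.89% of all genes. In LY alone all 13 were above Ctrl (median 0.81), 4 of them at an unadjusted p under 0.05, against 0.627% of all genes. For 12 of them the mice did not overlap, where 5.64% of all genes lay wholly above Ctrl and 6.41% wholly below. In AngII+LY against AngII none of the 13 passed, with a median of -0.28 that was 0.31 after the GC correction. Over all genes 10.1% were higher and 12.4% lower in that comparison at an unadjusted p under 0.05. Nuclear genes for respiratory-chain subunits, the partners of those mRNAs, had 29 of 44 higher and none lower at that threshold. Their median was 0.98, and 0.24 with the cardiomyocyte covariate. Proteins of the cytosolic ribosome, a list added after seeing the data, had 49 of 80 higher and 1 lower in the same comparison. Their median was 0.53, and 0.55 with the covariate. In AngII against Ctrl the medians of the 2 lists were -0.28 and -0.29.

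Mitochondrial chaperones and proteases included Lonp1 and Clpp, at 0.92 and 0.89 in AngII+LY against AngII. Of the 12, 4 were higher and 1 lower at an unadjusted p under 0.05, against 10.1% and 12.4% of all genes. Of the 14 nuclear regulators, 2 were higher, Esrra (1.05) and Esrrb (1.33), nuclear receptors that drive respiratory genes in muscle, beside 10.1% of all genes. With the cardiomyocyte covariate 3 of the 14 passed an unadjusted p of 0.05, none of them higher, and the median was -0.32. Over all genes 6.93% were lower under the covariate. Nrf1 itself stood at 0.03, Gabpa, which binds the ETS letters shown above, at -0.47, and Ppargc1a, their coactivator, at 0.33, and none of these 3, named after their values were seen, passed an unadjusted p of 0.05 in edgeR.

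**Figure D5:**
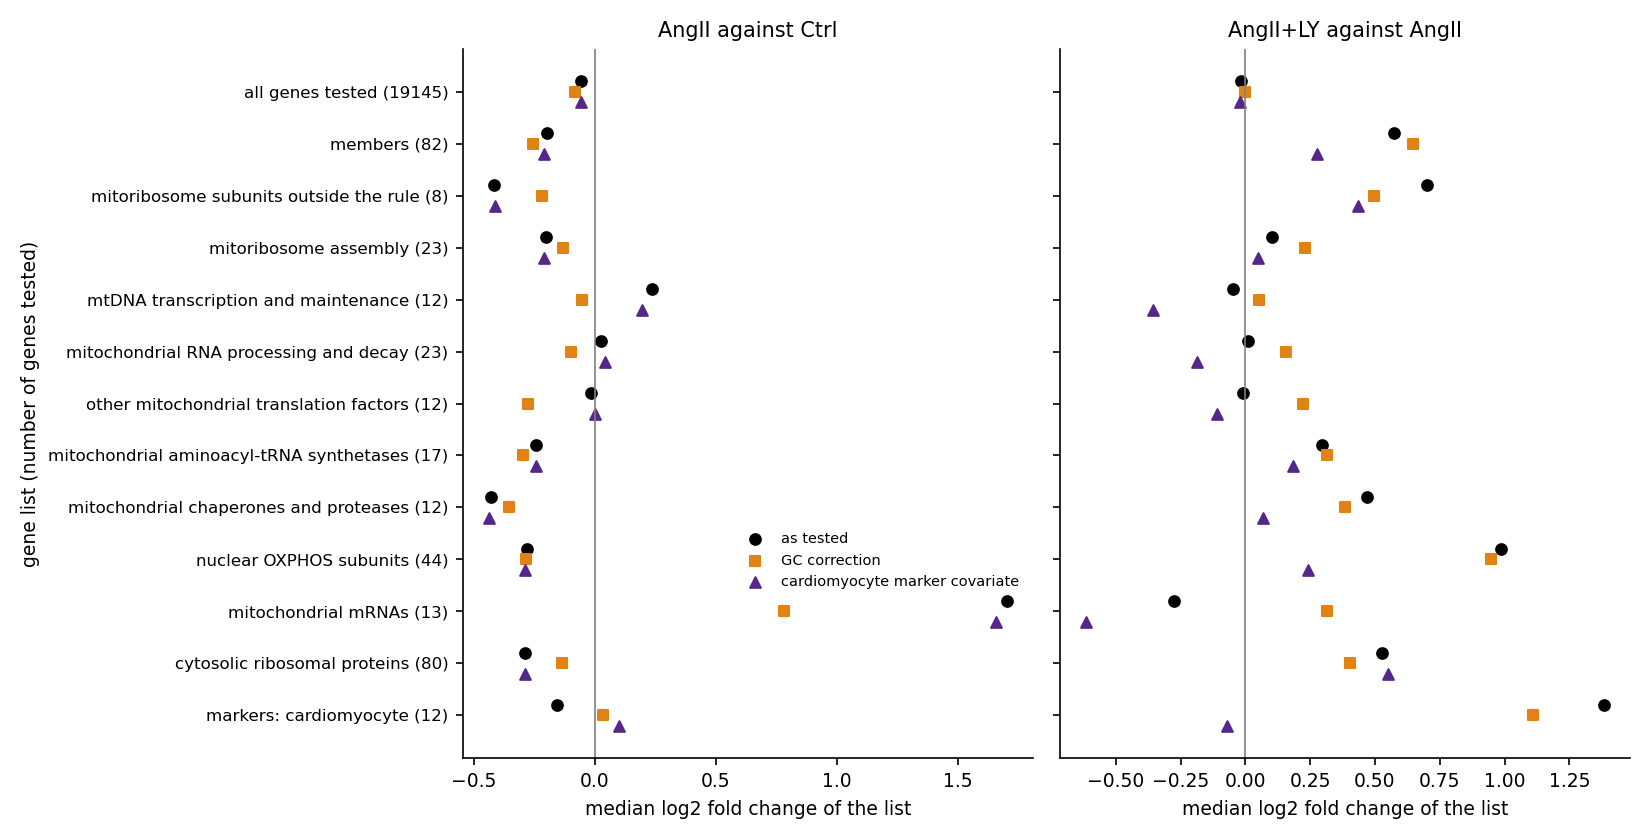
Median log2 fold change of 13 gene lists in AngII against Ctrl (left) and AngII+LY against AngII (right), with the number of tested genes in brackets. Black circles are values as tested, orange squares follow the GC correction and purple triangles the cardiomyocyte marker covariate. At right the members move from 0.57 to 0.28 with the covariate, the nuclear OXPHOS (respiratory-chain) subunits from 0.98 to 0.24, and the cytosolic ribosomal proteins stay near 0.53.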

How the data were processed

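Aortic valve leaflets of 14 mice were sequenced as 14 bulk libraries. The authors checked reads with FastQC 0.12.1, trimmed them, aligned them to GRCm39 with HISAT2 and assigned them to genes with featureCounts; the deposited table holds these raw whole-number counts, although its name announces normalized values. Annotation release, strand setting and versions of the other tools are not given in the sources used here.

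The 82 members with a mean count of at least 10 were tested among 19145 genes with edgeR 4.0.16 (R 4.3.3): TMM normalization, quasi-likelihood fit with its defaults and 1 model of the 4 groups without a block. The unit expected had been normalized counts, and the count test planned for raw counts was used. Normalized counts are counts over the TMM effective library size, scaled to the mean library. SEs were derived from the quasi-likelihood F statistic. Exact two-sided permutation tests over mice stand beside single members, and the labels name no batch, so p-values measure the spread between these libraries. Coordinates, exon lengths, GC content and exon overlap came from GENCODE release vM39 on GRCm39. The members and lists were chosen with earlier results of these data known. Named were all factors, the ribosomal genes with the smallest p per comparison, the extremes per length, and members against the majority. Alternatives were DESeq2 1.42.0, RLE size factors, no filter, a GC correction, a replicate block, totals without mitochondrial genes and leaving out each mouse. On simulated counts for 19145 genes, 18945 of them left unchanged, AngII against Ctrl was tested at an unadjusted p under 0.05. It recovered 55.2% of genes changed by a log2 fold change of 1 and 86.6% of those changed by 2. Of the unchanged genes 5.00% passed. In the measured libraries 25.2% of all genes passed in that comparison. Whether the recovery and the 5.00% hold for the measured libraries was not tested.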

Additional observations from a re-analysis of the deposited data

Results flagged for a closer look

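Among 90 groups of 4 mice checked for a value far from the others (30 named members in 3 groups), 3 were marked, and about 1 in 20 would be by chance. Polrmt in Ctrl replicate 2 had 1806.1 normalized counts, the next highest Ctrl value being 1394. Mrpl1 in AngII replicate 3 had 4884 normalized counts, against 2846 for the next. Mrpl43 in AngII replicate 3 had 1473 normalized counts, against 1096.9 for the next. In AngII replicate 3, 24.7% of the counts came from the mitochondrial genome.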

How the results depend on the processing

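The number of members past the adjusted test differed between tools and settings. edgeR's default had 0 at an adjusted p under 0.05 in each comparison, and DESeq2 had 13 when AngII was compared with Ctrl. It had 38 when AngII+LY was compared with AngII, 5 when it was compared with Ctrl, and 1 for the interaction. The newer quasi-likelihood method of edgeR, added after seeing the data, had 2 for AngII against Ctrl (2.9% of all genes) and 7 for AngII+LY against AngII (0.919%), and dropping the filter on low counts gave 1 for AngII against Ctrl (0.377%). The earlier quasi-likelihood method, planned as an alternative, is the default of this edgeR version and so gave no separate value. Leaving out 1 mouse at a time gave 0 to 10 adjusted members for AngII against Ctrl and 0 to 23 for AngII+LY against AngII. At an unadjusted p under 0.05 it gave 16 to 35 when AngII was compared with Ctrl (16.6% and 29.6% of all genes in those fits), 43 to 59 when AngII+LY was compared with AngII (18% and 21%), 14 to 42 when it was compared with Ctrl (7.62% or 9.35%, and 13.4%), and 14 to 49 for the interaction (6.74% and 13.2%). The median log2 fold changes ran from -0.32 to -0.11, 0.48 to 0.68 and 0.31 to 0.50 for the first 3 of these, and from -0.13 to 0.01 for LY against Ctrl, which had 0 members in each of these fits. Where 1 LY mouse was left out, the other was assumed to vary like the other groups.

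Without AngII replicates 3 and 4, 7 members had an unadjusted p under 0.05 for AngII against Ctrl. The cardiomyocyte marker covariate gave 25 when AngII+LY was compared with AngII, with a median log2 fold change of 0.28. It gave 2 when AngII+LY was compared with Ctrl (median log2 fold change 0.0859). For AngII against Ctrl it gave 37, where 5253 of the 19145 genes passed. For LY against Ctrl it gave 1, where 306 of the 19145 genes passed, and for the interaction 19. These settings were chosen after seeing the data. The 25 alternatives were followed for 46 pairs of a named member and a comparison, not for every named member in every comparison. Of these 1150 values, 2 were marked as changed in sign. Mtif2 in AngII+LY against AngII was 0.10 with the GC correction and 0.11 with the replicate block and GC correction. Other named members also changed sign with the GC correction. In AngII against Ctrl, Mrpl34 went from -0.39 to 0.06 and Mrpl43 from -0.15 to 0.21. In AngII+LY against AngII, Mrpl50 went from -0.32 to 0.20 and Mrpl1 from -0.08 to 0.36. The cause was not tested.

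Same-numbered libraries had correlations of their deviations from -0.128 to 0.0897. Differently numbered libraries were not set beside them, so whether the replicate numbers pair the mice was not resolved. With the replicate block, 25, 55, 28 and 0 members had an unadjusted p under 0.05 in the 4 comparisons (23.1%, 19.6%, 9.96% and 2.02% of all genes) and 29 for the interaction (13%), and with the block and GC correction 18 for AngII against Ctrl (12.4%).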
